A study of Zea mays with 64 samples.

Results

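Sites counted in the endosperm of 1 Mu-active father and in no library of any progeny plant were 11036 of the 1091553 rows of the insertion table. They were chosen by their counts: a row had to span 9 bp (start and end 8 bp apart), hold 3 or more counts in exactly 1 of the 4 father libraries, lie under 500 CPM there (its count scaled to a library total of 1000000), and hold 0 counts in the other fathers and in all 60 progeny libraries. Their number and level are therefore descriptions, and only their position and neighbours, which the rule did not use, were tested.

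Mu transposons are DNA elements of maize that move by a cut-and-paste reaction and leave a 9 bp duplication of the target at each new site, which is why rows of that span were used. An insertion that arises in the germ line passes to the offspring and is found in every cell of a carrier. An insertion that arises late in a somatic tissue is found in a sector of cells and gives a small share of the DNA. The endosperm, the triploid storage tissue of the kernel, does not contribute to the next generation. Mu insertions are known to be dense near the 5′ ends of genes.

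All plants were of the maize inbred W22. The 4 fathers came from crosses of a Mu-Inactive W22 ear with Mu-Active W22 pollen, and each gave 1 endosperm library: plant ND66-2 (D66-2 in the table) is the father of family NE71, ND67-51 of NE72, ND67-40 of NE73 and ND67-35 of NE74. Pollen of these fathers on Mu-Inactive W22 ears gave 30 kernels, from each of which an endosperm chip and a leaf of the seedling were sequenced, from 8, 7, 7 and 8 plants of the 4 families in that order. Leaf and endosperm DNA were extracted by different methods, so tissue and extraction cannot be told apart. In bulk DNA, a site carried by few cells and a site that is amplified poorly cannot be told apart either.

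Summed counts were 273277 in D66-2, 610687 in D67-51, 393329 in D67-40 and 606214 in D67-35, against 5457 to 105320 in progeny endosperm and 25037 to 687094 in leaf. Each father is a single library, so differences between fathers have no replicate check, and the intervals given cover counting error only. The endosperm library of plant 7 of NE74 stood apart: at 500 CPM or more it held 15 insertions that the authors' deposited table lists for the father of NE71 and for no other parent, against 0 insertions of other families in each of the other 59 progeny libraries. Without it the mean number of sites per father was 2765.8 in place of 2759, and the 6 comparisons below kept their sign and stayed above 0.05. The shares of low-level sites counted in progeny, given further below, were not computed without it.

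The number of sites differed between the fathers. D67-51 had 4689 (exact Poisson 95% interval 4556 to 4825), D67-35 had 3768 (3649 to 3890), D66-2 had 1915 (1830 to 2003) and D67-40 had 664 (614.4 to 716.5). The intervals did not overlap between any pair of fathers. They cover counting error within a library, so this describes the libraries and does not test a difference between fathers. All 9 bp rows with 3 or more counts differed likewise, at 9647 in D67-51, 7828 in D67-35, 3806 in D66-2 and 1428 in D67-40. The private sites were 46.5 to 50.3% of these rows, so the difference was not particular to sites absent from progeny. Depth did not follow this order, since D67-40 was deeper than D66-2.

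Per 100000 counts of the library, D67-51 had 768 sites, D66-2 had 700.8, D67-35 had 622 and D67-40 had 169. The ratio of the highest to the lowest was 4.55. Because the number with 3 or more counts does not grow in proportion to depth, the number expected after sampling each library to the total of the shallowest father was also computed exactly. It was 1915 in D66-2, 1570 in D67-51, 1257 in D67-35 and 428 in D67-40. At equal depth D66-2 was therefore the highest in place of D67-51, and D67-40 remained the lowest.

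Depth can also be set per insertion instead of per library. The insertions that the authors' deposited table lists for a father and not for the Mu-inactive parent numbered 27 in D66-2, 64 in D67-51, 51 in D67-40 and 71 in D67-35. Their median was 3823 counts in D66-2, 3966 in D67-51, 3527 in D67-40 and 4433 in D67-35, so these insertions were sampled to a similar depth in all fathers although the library totals differed. Sampled so that this median was equal, the libraries were expected to hold 1723 sites in D66-2, 4017 in D67-51, 664 in D67-40 and 2769 in D67-35. The place of D66-2 thus depended on the measure of depth, whereas D67-40 was the lowest by each of them. Per listed insertion there were 70.9 sites in D66-2, 73.27 in D67-51, 13.0 in D67-40 and 53.1 in D67-35.

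**Figure D1:**
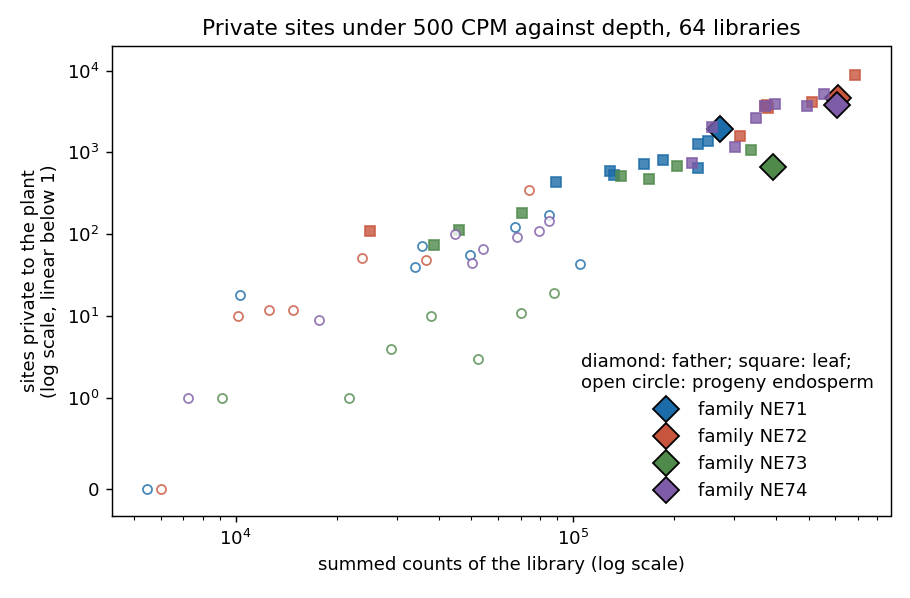
Number of sites private to a plant (3 or more counts, under 500 CPM, 0 counts in every library of any other plant; vertical axis, log scale that is linear below 1) against the summed counts of the library (horizontal axis, log scale) for all 64 libraries, coloured by family. The diamond of D67-40 at 393329 counts lies below the leaf libraries of like depth, and the diamond of D67-35 at 606214 counts, with 3768 sites, lies below the leaf libraries nearest to it in depth.

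The sites held a small share of the father libraries. They took 4.83% of the counts of D66-2, 4.38% of D67-51, 3.58% of D67-35 and 1.07% of D67-40. Insertions listed by the authors for the father took 79.1% in D66-2, 77.8% in D67-51, 80.7% in D67-35 and 94.9% in D67-40. These shares cover 56, 93, 100 and 80 listed insertions in that order, because those also listed for the Mu-inactive parent are included here. The library with the fewest private sites was thus also the one in which listed insertions took the largest share of counts, and the 2 shares are parts of 1 total. Among all 9 bp rows with 3 or more counts in a father, sites absent from the other 63 libraries were 48.4% ± 1.57 (SD, n = 4), with a range from 46.5% in D67-40 to 50.3% in D66-2.

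The levels were low and fell steeply. The median site had 4 counts in every father, which is 14.6 CPM in D66-2, 10.2 in D67-40, 6.60 in D67-35 and 6.55 in D67-51. These medians follow the limit of 3 counts, which is 10.98 CPM in D66-2, 7.63 in D67-40, 4.95 in D67-35 and 4.91 in D67-51. Sites with exactly 3 counts made up 43.9% in D66-2 (Wilson 95% interval 41.7 to 46.1%), 43.7% in D67-51 (42.3 to 45.1%), 44.4% in D67-35 (42.8 to 46.0%) and 40.2% in D67-40 (36.5 to 44.0%). All 4 intervals overlap.

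Just outside the limit, 15890 private sites of the 4 fathers had 2 counts and 78609 had 1 count, against 4831 with 3. The ratio of private sites with 2 counts to those with 3 was 3.18 in D66-2, 3.37 in D67-51, 3.25 in D67-40 and 3.25 in D67-35. The ratio of sites with 3 counts to those with 4 was 2.43, 2.23, 2.28 and 2.26 in the same order. The ratio of sites with 1 count to those with 2 varied more, at 4.11, 4.95, 4.75 and 5.38. The number thus fell at each step in all 4 libraries, and the limit of 3 counts lies on a continuous slope.

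**Figure D2:**
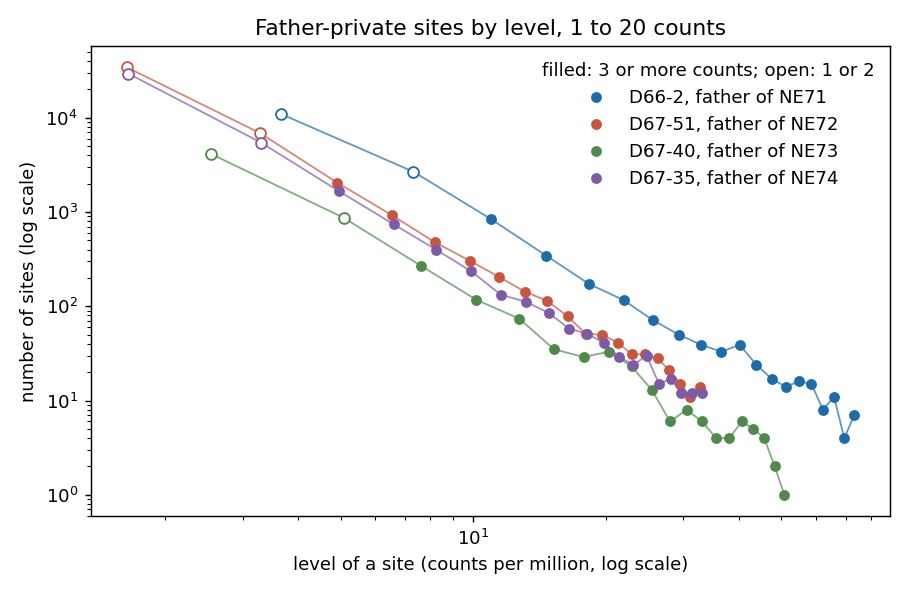
Number of father-private 9 bp sites (vertical axis, log scale) at each count from 1 to 20, set at its level in CPM (horizontal axis, log scale), 1 line per father; open points have 1 or 2 counts and lie below the limit. The 4 lines fall with similar slopes, and the line of D66-2 lies to the right of the others.

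The upper part of the spectrum differed more. Sites with 10 or more counts were 281 in D66-2 (14.7% of its sites, Wilson 95% interval 13.2 to 16.3%), 477 in D67-51 (10.2%, 9.34 to 11.1%), 392 in D67-35 (10.4%, 9.47 to 11.4%) and 86 in D67-40 (13.0%, 10.6 to 15.7%). In D66-2 these sites held 49.2% of the counts of all its private sites, against 34.1% in D67-51, 35.7% in D67-35 and 39.9% in D67-40. At 100 CPM or more there were 61 sites in D66-2 (exact Poisson 95% interval 46.7 to 78.4), 13 in D67-51 (6.92 to 22.2), 10 in D67-35 (4.80 to 18.4) and 6 in D67-40 (2.20 to 13.1). The interval of D66-2 did not overlap those of the other fathers. These intervals cover counting error within a library, and level was part of the rule. The contrast is therefore a description and not a test between fathers. The number of all rows at that level was not computed.

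CPM also depends on how many inherited insertions share a library, and D66-2 had the fewest. Its listed insertions had a median of 13990 CPM, against 6494 in D67-51, 8967 in D67-40 and 7313 in D67-35. Measured against this median, the median private site was at 0.105% in D66-2, 0.101% in D67-51, 0.113% in D67-40 and 0.0902% in D67-35. Sites at 1% or more of it numbered 36 in D66-2, 31 in D67-51, 18 in D67-35 and 7 in D67-40. On this scale the numbers in D66-2 and D67-51 were close. They were out of 1915 and 4689 private sites, so as a share of its sites D66-2 was still the higher of the 2. The highest private site reached 3.19% of the listed median in D66-2, 6.78% in D67-51, 2.75% in D67-40 and 4.20% in D67-35. The ceiling of 500 CPM lies below the lowest listed insertion of every father, so the rule itself kept the sites under that level.

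The 3 highest sites of D66-2 lay on chromosome 8 from 177324859 to 177324867 with 122 counts (446 CPM), on chromosome 8 from 172522499 to 172522507 with 120 counts (439 CPM) and on chromosome 9 from 13818758 to 13818766 with 115 counts (421 CPM). All 3 lay within 14 Mb of a chromosome end and had rows of other plants at 23, 125 and 210 bp, each with 3 or more counts. Positions are as deposited, and the genome build is not given in the sources used here, so no gene is named.

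In D67-51 the highest site lay on chromosome 1 from 54027264 to 54027272, with 269 counts or 440.5 CPM. The nearest site of 3 or more counts in another plant lay at 30227 bp, but a row of another plant with fewer counts lay at 584 bp. The next were on chromosome 1 from 218839753 to 218839761 with 166 counts (272 CPM) and on chromosome 8 from 19237316 to 19237324 with 147 counts (241 CPM). The last of these had 6 sites of other plants within 1 kb, the nearest at 4 bp.

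In D67-40 a site on chromosome 6 from 42476136 to 42476144 had 97 counts (247 CPM). The others named there had 49 counts, on chromosome 10 from 132485316 to 132485324, and 46 counts, on chromosome 2 from 235713642 to 235713650. The site on chromosome 2 lay 1 bp from a private site of D67-35 with 5 counts, so by position these fathers almost coincide there. In D67-35 the highest sites were on chromosome 4 from 85361091 to 85361099 with 186 counts (307 CPM), on chromosome 8 from 67199853 to 67199861 with 177 counts (292 CPM) and on chromosome 4 from 206403780 to 206403788 with 167 counts (275 CPM). The last lay 65025 bp from the nearest site of 3 or more counts in another plant, but 59 bp from a row of another plant with fewer counts.

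Above the ceiling of 500 CPM, 7 further sites met the rest of the rule: 5 in D66-2, 1 in D67-51, 1 in D67-35 and 0 in D67-40. The lowest of D66-2 lay at 501 CPM with 137 counts, on chromosome 2 from 187997506 to 187997514, beside its highest site under the ceiling at 446 CPM. That of D67-51 had 412 counts (675 CPM) on chromosome 8 from 135440662 to 135440670. That of D67-35 had 3450 counts (5691 CPM) on chromosome 7 from 923972 to 923980, which is 77.8% of the median listed insertion of this father. It lay far above the rest of the spectrum, had 0 counts in all progeny, and had 17 sites of other plants within 1 kb, the nearest at 10 bp.

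How far 0 counts in progeny limits a level depends on depth. The level that 3 counts would give in a leaf library of the own family ranged from 11.95 to 33.7 CPM for family NE71, from 4.37 to 119.8 for NE72, from 8.86 to 77.7 for NE73 and from 5.40 to 13.3 for NE74. In endosperm it ranged from 28.5 to 549.8 CPM over the 4 families. Sites above the limit of every own-family leaf library numbered 281 of 1915 in D66-2, 8 of 4689 in D67-51, 10 of 664 in D67-40 and 477 of 3768 in D67-35. Each of these counts was set by 1 shallow library. Without the shallowest leaf library of the family, a choice made after seeing the data, they were 441 in D66-2, 1242 in D67-51, 15 in D67-40 and 588 in D67-35, and for D67-51 the limit moved from 119.8 to 9.61 CPM without plant 8. In NE71 and NE72 endosperm the highest limit lay above the ceiling of 500 CPM, so no site could pass it. For most sites, absence at the father's level was therefore not detectable in every leaf library taken alone. Summed over all leaf libraries of a family, 3 counts correspond to 2.11 CPM (NE71), 1.13 CPM (NE72), 2.99 CPM (NE73) and 1.01 CPM (NE74), which is below the level of every private site.

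The same rule applied to progeny put the fathers in context. For a progeny library, a private site had to have 0 counts in every library of any other plant. All libraries with at least 25037 counts, the total of the shallowest leaf library, were compared by the number expected after sampling to that total, and 11 progeny endosperm libraries were too shallow. The fathers were at 90.3 in D66-2, 30.5 in D67-51, 13.3 in D67-40 and 26.7 in D67-35. Leaf libraries averaged 85.0 ± 22.8 in NE71 (SD, n = 8), 96.0 ± 20.01 in NE72 (n = 7), 53.1 ± 10.7 in NE73 (n = 7) and 75.2 ± 18.4 in NE74 (n = 8). Progeny endosperm averaged 20.5 ± 10.0 in NE71 (SD, n = 6), 29.5 ± 11.9 in NE72 (n = 2), 2.64 ± 1.35 in NE73 (n = 5) and 16.9 ± 9.29 in NE74 (n = 6).

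D67-40 and its family NE73 were the lowest of the 4 in the father, in leaf and in progeny endosperm. D67-51, D67-40 and D67-35 lay below every leaf library of their families, whereas D66-2 lay within the range of the NE71 leaf libraries (31.9 to 106.6) and above the highest NE71 endosperm library (33.6). D67-40 also lay above the highest endosperm library of its family (4.12). With 4 families and 1 library per father these orders were not tested. The libraries were set to an equal total, not to an equal depth per inherited insertion, and among the fathers the place of D66-2 depended on that choice. How fathers and progeny compare at equal depth per insertion was not computed.

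**Figure D3:**
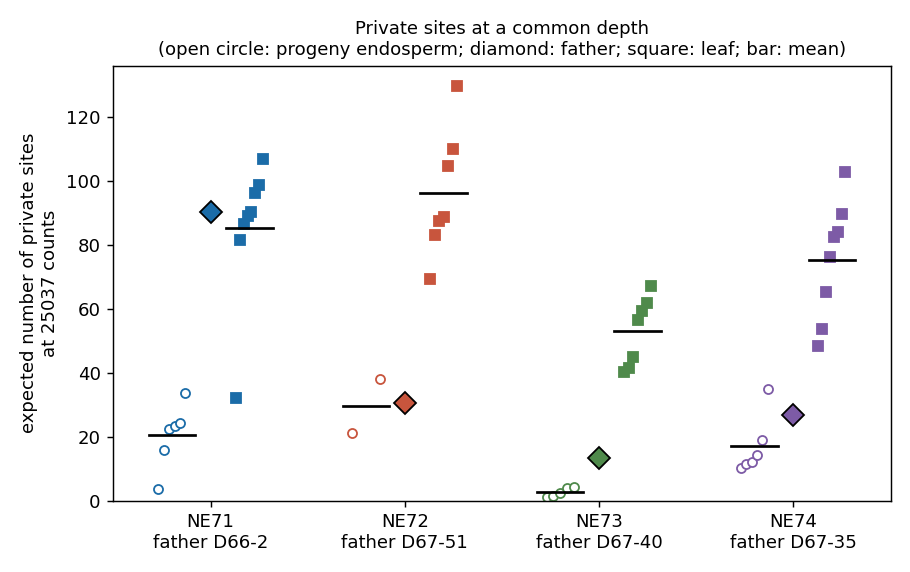
Expected number of private sites at 25037 counts (vertical axis) by family; open circles are progeny endosperm libraries, the diamond is the father, squares are leaf libraries and bars are means. NE73 is the lowest in each of the 3 kinds of library, and the diamond of D66-2 is the only father that reaches the leaf libraries of its family. Depth is equal in total counts, not per inherited insertion.

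Along the chromosomes the private sites were dense towards the ends. Each chromosome was taken from 1 to the last position in the table. The outer 10% at each end, together 20% of the span, held 35.6% of sites in D66-2 (Wilson 95% interval 33.5 to 37.8%), 36.4% in D67-51 (35.0 to 37.7%), 32.5% in D67-40 (29.1 to 36.2%) and 36.6% in D67-35 (35.1 to 38.1%). The mean was 35.3% ± 1.87 (SD, n = 4), and over all 1091016 sites of that span on the numbered chromosomes it was 36.1%. In 10 equal bins, the last held 19.7% ± 1.15 of the sites, the first 15.6% ± 1.14, and the fifth, the lowest, 4.32% ± 0.305 (SD, n = 4). The profile was lopsided, with more sites towards the end of the numbering than towards its start in all 4 fathers.

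The share in the outer parts was set against 3 other classes of site, and no difference passed 0.05. Progeny leaf sites private to 1 plant had 36.5% ± 1.32 in the outer parts (SD, n = 4 family means), a difference of -1.23 percentage points for the fathers (exact two-sided permutation p = 0.457, adjusted p = 0.686, 2 of 4 fathers higher). Progeny endosperm had 36.2% ± 7.78, a difference of -0.965 points (exact permutation p = 0.943, adjusted p = 0.943, 3 of 4 higher). In NE73 endosperm the mean of 47.8% over libraries was 26.5% with its 49 sites pooled, and with pooled sites in every family the difference turned to 1.62 points, a choice made after seeing the data. Sites of the same fathers at 500 CPM or more had 34.2% ± 8.57, a difference of 1.09 points (exact sign-flip p = 0.75, adjusted p = 0.9, 2 of 4 higher). The smallest p that 4 against 4 allows is 0.0286 and that 4 pairs allow is 0.125, so the last comparison could not pass 0.05. After adjustment over 6 tests, 1 comparison alone at 0.0286 could not pass either. Without D67-40 and its family the differences from progeny became 3.82 points in endosperm and 0.314 in leaf.

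**Figure D4:**
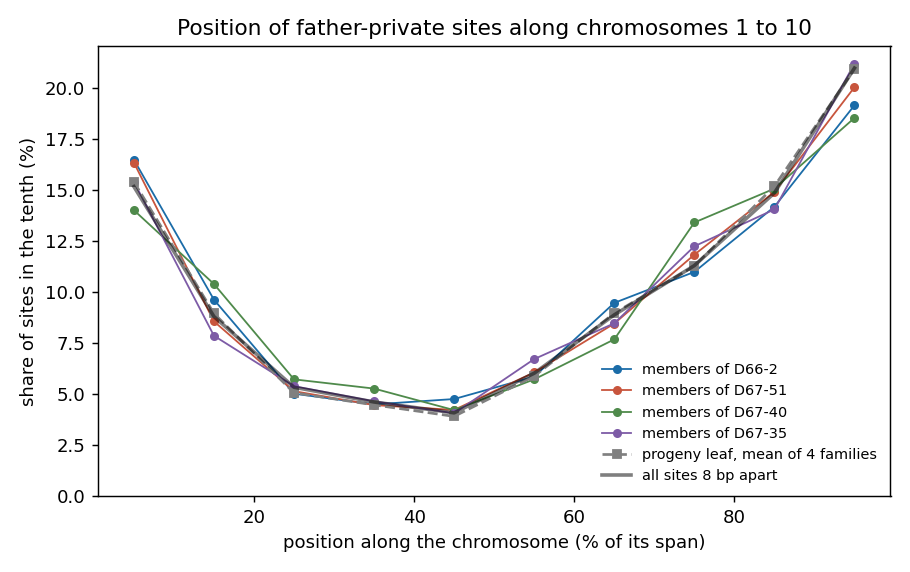
Share of sites (vertical axis, %) in 10 equal bins along chromosomes 1 to 10 (horizontal axis, % of the span) for the private sites of each father, for progeny leaf sites (mean of 4 families) and for all 9 bp sites. All lines are high at both ends, highest at the right end, and lowest near the middle, and the father lines run beside the line of all sites.

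All 10 chromosomes carried sites in every father. Chromosome 1 held the most, 1843 over the 4 fathers, or 16.7% ± 0.346 of a father's sites (SD, n = 4) on 14.7% of the span, beside 16.9% of all 9 bp rows. Chromosome 10, the shortest, held 749, or 7.20% ± 0.942 on 7.04% of the span, beside 6.50% of all 9 bp rows. Density over all fathers ranged from 4.68 sites per Mb on chromosome 8 to 5.93 on chromosome 1. Chromosome 9 had 6.59% ± 1.36 of sites on 7.69% of the span, and all 9 bp rows also had a lower share there, 6.98%. The other 9 sites were on scaffolds.

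Of 2127 windows of 1 Mb, 1919 held at least 1 private site of a father, 279 held sites of all 4 fathers and 208 held none. The densest window, on chromosome 6 from 165000000 to 165999999, held 47 sites: 25 of D67-51, 14 of D67-35, 5 of D66-2 and 3 of D67-40. The window next to it on the right, from 166000000, held 32. The second densest, on chromosome 2 from 6000000 to 6999999, held 33, of which 21 were from D67-51. The median window held 4. The 3 windows named lay at 96.5%, 97.1% and 2.66% of their chromosomes, in the end bins where all 9 bp rows were also dense. The number of all 9 bp rows in each window was not computed, so these windows are not shown to be particular to the private sites.

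At a finer scale the private sites lay close to sites of other plants. A 9 bp row with 3 or more counts in a library of another plant was found within 1 kb of 81.9% of sites in D66-2, 79.0% in D67-51, 84.2% in D67-40 and 80.5% in D67-35. The stretches within 1 kb of such rows covered 3.91 to 4.02% of the chromosomes. Within 100 bp the share was 43.7% ± 2.23 (SD, n = 4) on 0.689 to 0.718% of the chromosomes, and within 10 kb it was 92.9% ± 1.18 on 23.0 to 23.4%. A private row was thus seldom far from a place where other plants also had counts.

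The same share was computed for other classes of site. Over family means, 79.1% ± 1.12 of leaf sites had such a neighbour within 1 kb (SD, n = 4), a difference of 2.27 points for the fathers (exact permutation p = 0.114, adjusted p = 0.286, 3 of 4 fathers higher). In progeny endosperm it was 77.3% ± 4.14, a difference of 4.09 points (exact permutation p = 0.143, adjusted p = 0.286, 3 of 4 higher). Sites of the fathers at 500 CPM or more were at 88.3% ± 4.6, a difference of -6.93 points that was negative in 4 of 4 fathers (exact sign-flip p = 0.125, the smallest possible, adjusted p = 0.286). For sites at 500 CPM or more, rows of progeny beside the same inherited insertion count as neighbours. With rows within 10 bp not counted, a choice made after seeing the data, the difference was -4.35 points. None of the 6 comparisons of position and neighbours passed 0.05.

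Absence from progeny held for the exact row. In 45.2% of the sites of D66-2, 43.5% of D67-51, 44.6% of D67-40 and 42.6% of D67-35, a row of another plant with 1 or more counts started within 10 bp, on 0.683 to 0.706% of the chromosomes. The distance was most often 1 bp, in 246 sites of D66-2, 545 of D67-51, 80 of D67-40 and 457 of D67-35, and 2 bp was next. In private sites of progeny leaf the share was 46.9% ± 1.16 and in progeny endosperm 47.3% ± 3.12 (SD, n = 4 family means), against 44.0% ± 1.17 in the fathers (SD, n = 4). The endosperm value rested on 3 libraries with 1 private site each: without them, a choice made after seeing the data, it was 40.3% ± 9.40, below the fathers. Leaving these sites out reduced the mean per father from 2759 to 1557.8. Whether neighbouring rows are separate insertions or 1 insertion placed at slightly different bases cannot be told from counts.

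Within a father's own library, few private sites sat beside a stronger row. A row with a higher count started within 10 bp of 161 of the 11036 sites, or 1.37% ± 0.543 per father (SD, n = 4). Among the private sites themselves, 55 neighbouring pairs of the same father lay 1 bp apart and 44 lay 2 to 10 bp apart.

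By the rule, no row could be a private site of more than 1 father. Private sites of different fathers formed 44 pairs within 10 bp, with distances spread from 1 to 10 bp and a median of 10 summed counts. The number of pairs expected from the density of sites was not computed, so this number is not called low or high. The pair with the most counts was the one of D67-40 and D67-35 on chromosome 2 described above, and the next, on chromosome 4, joined a site of D66-2 from 131320256 to 131320264 with 24 counts and a site of D67-51 from 131320260 to 131320268 with 14. Within 1 kb, 287 sites of D66-2 (15.0% of them) had a private site of D67-51, which were 296 sites of D67-51 (6.31%). The larger lists gave the larger shares: 15.7% of the sites of D67-40 had a private site of D67-51 within 1 kb, but 2.56% of the sites of D67-51 had one of D67-40.

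Position and neighbours were also compared between levels. The outer parts of the chromosomes held 35.8% ± 2.49 of sites with 3 counts, 35.5% ± 2.08 with 4 to 5, 34.0% ± 2.38 with 6 to 9 and 33.7% ± 1.53 with 10 or more (SD, n = 4 fathers). A neighbour of another plant within 1 kb was present for 82.4% ± 3.38, 81.3% ± 1.77, 80.8% ± 1.47 and 79.1% ± 2.93 in the same order. From the lowest to the highest level both mean shares were lower by about the spread between fathers, and this was not tested. The fathers differed: the outer share rose in D67-40, from 32.2% to 33.7%, and the neighbour share rose in D67-35, from 79.8% to 81.6%. Each share fell in the other fathers.

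The private sites are what remains of a father's low-level sites after those counted in progeny are taken away. Sites under 500 CPM with 3 or more counts in 1 father and 0 in the other fathers numbered 3108 in D66-2, 8004 in D67-51, 1063 in D67-40 and 6258 in D67-35. Of these, 61.6% in D66-2, 58.6% in D67-51, 62.5% in D67-40 and 60.2% in D67-35 had 0 counts in all progeny. A count in at least 1 library of the own family was present for 17.0%, 27.8%, 11.8% and 24.6% in the same order, and in at least 1 library of the other families for 33.3%, 32.7%, 33.7% and 32.1%. The other families had 44 to 46 libraries and the own family 14 to 16, and the families differed in depth, so these shares are not directly comparable.

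Seen from each progeny library, the depth of that library is the same for all fathers, but the lists of the fathers start at unlike levels. The limit of 3 counts was 10.98 CPM in D66-2 and 4.91 CPM in D67-51. The share of the own father's low-level sites with a count was on average above that of the other fathers. In NE71 leaf, 3.70% ± 1.36 of the sites of D66-2 had a count, against 2.53% ± 0.896 averaged over the other fathers (SD, n = 8). In NE72 leaf the own share was 7.58% ± 3.59 against 5.59% ± 2.69 (n = 7), in NE73 leaf 2.27% ± 1.17 against 1.77% ± 1.09 (n = 7), and in NE74 leaf 5.57% ± 1.34 against 4.38% ± 1.15 (n = 8). The own share exceeded the mean of the other fathers in 30 of 30 leaf libraries and was the highest of the 4 fathers in 26. In endosperm it exceeded the mean in 26 of 30 libraries and was the highest in 20. The means over families were 0.646% ± 0.346 for the own father and 0.372% ± 0.217 for the others (SD, n = 4). Following the sites of 1 father across families gave a mixed picture. Sites of D67-35 were found 943 times per 1000000 counts in leaf of the own family and 963 times in leaf of the others, and sites of D67-40 were found 39.0 times in own endosperm and 95.2 times in that of the others. In the other 6 of these 8 comparisons the own family was higher. These values are given without a test, because presence in progeny is what the rule removed.

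**Figure D5:**
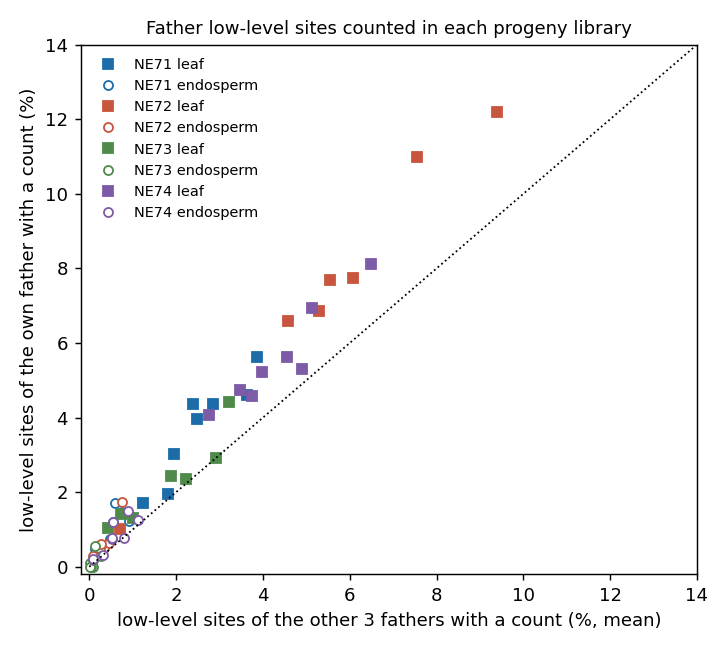
Share of the own father's low-level sites with a count (vertical axis, %) against the mean share for the other 3 fathers (horizontal axis, %), 1 point per progeny library, coloured by family, with squares for leaf and open circles for endosperm; the dotted line marks equal shares. All 30 leaf points lie above the line.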

How the data were processed

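The authors deposited raw counts per insertion row for 64 libraries, per the file headers, and a table of 0 or 1 calls of transmitted insertions per parent and plant. Bowtie2 is named in the submitters' processing notes. The build, the counter and the use of molecular identifiers are not given in the sources used here. Per the labels' protocols, sheared DNA received an adapter and DNA beside Mu ends was amplified by PCR. Of the call table, the 5 parent columns were used and 30 columns of plant calls were not.

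Here each row was 1 site, and CPM was its count divided by the library total and multiplied by 1000000. Fathers were grouped by the sample titles. Numbers at lower depth are exact hypergeometric expectations of sites keeping 3 or more counts, with absence still judged at the full depth of the other libraries. Shares were compared by exact two-sided permutation (4 fathers against 4 family means) or sign flip (4 fathers), with Benjamini-Hochberg adjustment over 6 tests (Python 3.11.15, scipy 1.17.1). The finder and the tests were tested on simulated data. Named sites were the 3 with the highest count per father, the densest 1 Mb window, those nearest the ceiling and close pairs between fathers; of the 44 close pairs only those with the most counts are named. Members and choices were made with earlier results of these data known. Counts are PCR products, so intervals cover counting error only, and samples are single libraries.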

Additional observations from a re-analysis of the deposited data

Results flagged for a closer look

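Values far from the rest of their group were sought in 40 sets of 4 to 8 libraries, and 5 were found where chance gives about 2. Among the fathers, D67-40 had 40.2% of its sites at 3 counts against 43.7 to 44.4% in the others. The Wilson 95% interval of D67-40 (36.5 to 44.0%) overlaps those of the other fathers. D66-2 had 61 sites at 100 CPM or more against 6 to 13.

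Among progeny endosperm at 25037 counts, plant 2 of NE74 was expected to hold 34.8 private sites against 10.1 to 18.8 in the 5 other libraries compared. Plant 5 of NE74 had a share of 0% in the outer parts of the chromosomes, from 1 private site. Among leaf libraries, plant 2 of NE71 was expected to hold 31.9 private sites at 25037 counts against 81.4 to 106.6 in the other 7 plants.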

How the results depend on the processing

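The mean number of sites per father, 2759, was 6731.5 at a minimum of 2 counts, 1020.5 at 5 and 309 at 10, 1557.8 without sites near a row of another plant and 1292.4 at the total of the shallowest father, and the mean median level of 9.49 CPM was 4.74, 18.2 and 35.4 at 2, 5 and 10 counts. Leaving out each father gave 2115.7 to 3457.3 sites and 7.77 to 10.5 CPM. At equal counts of the median listed insertion, chosen after seeing the data, the number was 2293.1. The share of low-level sites counted in the own family, 20.3% on average, was 17.8 to 23.1% without each father. None of the 6 comparisons of shares passed 0.05 under any alternative after adjustment. The lowest adjusted p was 0.171 (exact permutation). With 4 against 4, 1 comparison alone at its smallest p of 0.0286 could not pass after adjustment over 6 tests. Without a father the smallest permutation p was 0.1 and the smallest sign-flip p 0.25, so none could pass. These outcomes were largely fixed by the number of fathers and do not show that the shares were equal. The difference in the outer parts from progeny endosperm changed sign to 0.931 points at 2 counts, 5.55 under a ceiling of 100 CPM, 5.73 without sites near a row of another plant, 1.62 with sites pooled per family (chosen after seeing the data), 2.38 for the outer 20% and 0.0353 within 10 Mb of an end, was -9.27 at 5 counts and -12.3 at 10, and ranged from -2.97 to 3.82 without each father. That from leaf became 0.119 at 2 counts and ranged from -1.98 to 0.314 without each father. That from sites at 500 CPM or more became -0.478 at 10 counts, -0.26 without sites near a row of another plant, -2.28 with fathers at the mean total of their family's endosperm and -1.12 for the outer 5%, and ranged from -2.20 to 4.39 without each father. The difference in neighbours from leaf became -1.20 with fathers at that total and -2.09 within 100 bp, and ranged from 1.66 to 3.40 without each father. That from sites at 500 CPM or more became 2.19 with rows of any width, was -40.5 within 100 bp and -1.50 within 10 kb, and ranged from -9.14 to -4.48 without each father. It was -16.6 without private sites near a row of another plant. Here and for the outer parts, that filter was not put on the sites at 500 CPM or more, so a filtered set was compared with an unfiltered one. That from endosperm kept its sign, from 0.631 with fathers at the mean total of their family's endosperm to 11.2 at 5 counts, and from 1.38 to 5.93 without each father. With sites pooled per family, a choice made after seeing the data, it was 6.02 points. Its exact permutation p was 0.0286, the smallest possible, with an adjusted p of 0.171. With the family as replicate block the differences in the outer parts were -0.965 points from endosperm (exact sign-flip p = 1) and -1.23 from leaf (exact sign-flip p = 0.75). The differences in neighbours were 4.09 points from endosperm and 2.27 from leaf (exact sign-flip p = 0.25 each). The smallest sign-flip p that 4 pairs allow is 0.125, so with the block no comparison could pass 0.05. The block therefore cannot show whether the pairing of father and family matters. The cause of the changes of these differences between settings was not tested. Depth limits the text chiefly in progeny endosperm, where some libraries hold 1 private site or 0.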
